A study of Drosophila melanogaster with 8 samples.

Results

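The odorant-binding protein (Obp) genes of Drosophila melanogaster were examined in whole embryos reared at 25 °C to stage 17 (aged 17 to 18.5 h). Members were taken by name, as every feature whose symbol began with Obp followed by a digit, which gave 51 of the 17717 features. Carrier genes under other symbols, such as lush, were not counted as members. The embryos carried alrm-gal4 with UAS myr::GFP and 25H07-gal4 with UAS-redstinger::NLS, and all of the samples shared this genotype and age, so there was no treated group and no control. Pools of embryos were dissociated and their cells were profiled by 3' single-cell RNA sequencing in droplets, in which each captured RNA molecule is tagged with a unique molecular identifier (UMI). The labels name 8 samples, 4 libraries on 2 lanes each, and the files hold 1 merged matrix whose barcodes end in a number from 1 to 8 that the labels do not tie to a sample. The numbers n and n + 4 shared at least 99.56% of the barcodes of the smaller one, so they were summed to 1 cell and treated as 4 library pairs, named 1 to 4 after the lower number.

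Odorant-binding proteins are small, secreted, soluble proteins that carry hydrophobic molecules. They are best known from the fluid around the dendrites of chemosensory neurons, where they are made by the support cells of the sense organ and can hand odorants or tastants to membrane receptors. In the larva the dorsal organ at the tip of the head is the organ of smell, and the terminal and ventral organs beside it serve taste. Many genes of the family are also transcribed outside sense organs.

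Of 38531 cells, 27932 had 200 or more genes and under 20% mitochondrial UMIs and were kept (7309, 6589, 7164 and 6870 in library pairs 1 to 4). They held 230848097 UMIs, 53891008 to 62254606 per pair, with a median of 3519 to 4326 UMIs per cell. Library pair 1 stood apart in its makeup: 6.51% of its cells were neuron-like against 18.9% to 26.0% in the others, and 18.7% were fat body-like against 4.78% to 8.25%. Levels are given as CPM, the UMIs of a gene per 1000000 UMIs of the same cells. With 1 pooled sample there was no test between conditions and no p-value; intervals in parentheses are exact 95% intervals for counting error only.

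A member was called on when it had at least 20 UMIs in all kept cells and at least 1 in each library pair. By this rule 30 of the 51 members were on, beside 12167 of all 17717 features. The 21 others included 4 with no UMI (Obp19a, Obp50b, Obp50c and Obp57d) and 15 with 1 to 10 UMIs, among them Obp22a with 10, Obp57b with 8, and Obp19d and Obp84a with 7 each. For Obp19a, 0 UMIs allow at most 0.0130 CPM (3 counts). Obp50b and Obp50c have the same coordinates and strand and Obp57d overlaps Cpr57A on the same strand, so reads shared with those genes may not have been counted and a 0 sets no limit on them. The remaining 2 of the 21, Obp58c with 314 UMIs and Obp50d with 35, passed 20 UMIs but had none in library pair 1. The members together took 450576 UMIs, 0.195% of all, and 55.2% of cells (54.6 to 55.8) held at least 1 UMI of a member. By chromosome arm, 14 of 29 members on 2R were on, 11 of 12 on 3R, 3 of 6 on X, 1 of 2 on 2L and 1 of 2 on 3L. No share of all features was computed by arm.

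The family was dominated by 6 genes. Obp44a had 174376 UMIs (755 CPM), Obp99c 71226 (309 CPM), Obp28a 67632 (293 CPM), Obp83g 47132 (204 CPM), Obp99a 31430 (136 CPM) and Obp83cd 29425 (127 CPM), and these made up 93.5% of the family's UMIs. Obp44a was the 203rd most abundant of all features. A further 7 members lay between 1079 UMIs (Obp56b) and 6131 UMIs (Obp83ef), and 12 between 102 and 991. Obp28a differed from the other abundant members in how few cells held it. Its UMIs came from 438 cells, against 7379 cells for Obp44a and 2726 for Obp83g, and the 20 cells richest in it held 97.7% of them.

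**Figure D1:**
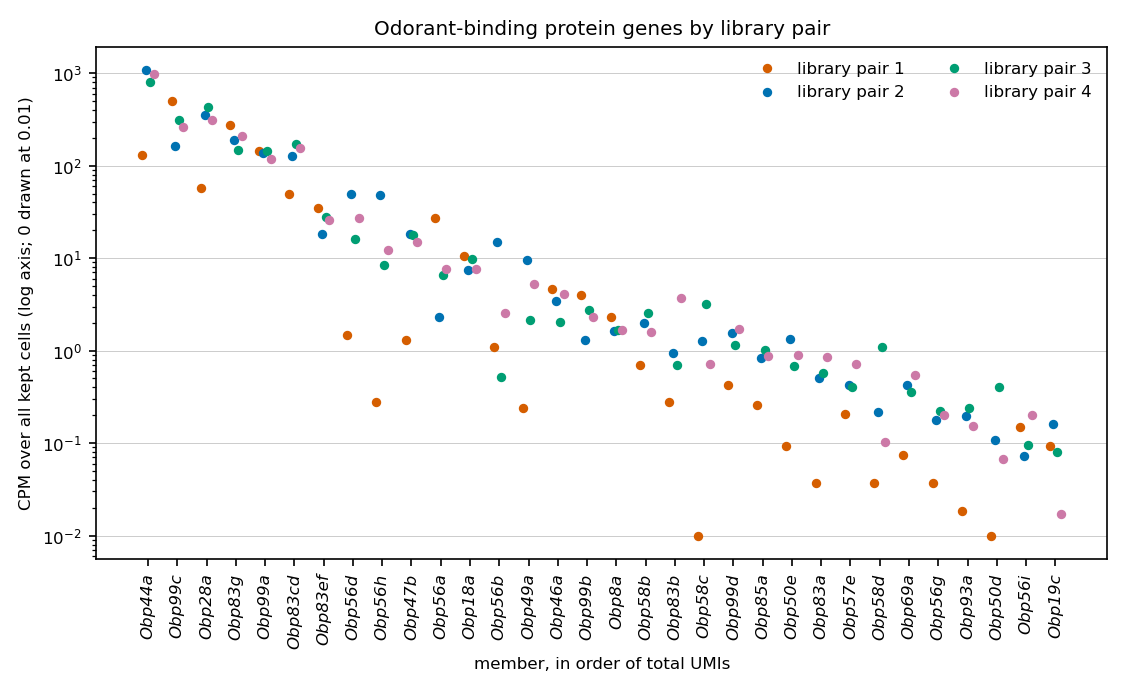
CPM over all kept cells (log axis) of the 32 members with 20 or more UMIs, in order of total UMIs, with 1 point for each of the 4 library pairs; a value of 0 is drawn at 0.01. Obp44a lay at 130 CPM in pair 1 and at 797 to 1075 CPM in the others, whereas Obp99a lay between 118 and 145 CPM in all 4.

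To place the members, the kept cells were clustered without the Obp genes, and the 59 clusters were named from marker genes where the markers allowed. Levels were then read over 26 sets of cells, 16 named classes and 10 single clusters that are called here by a leading gene or by the genes they mix. A member was called higher in a set when its CPM was at least 2-fold that of all other kept cells, in the sum and in each library pair, with at least 20 UMIs in the set. By this rule 24 of the 30 members were higher somewhere, 80.0%, beside 72.3% of the 12167 features that were on by the same rule. Of the 24, 12 were higher in 1 set and 12 in more. The 6 members that were on but called nowhere were Obp56h, Obp56b, Obp58d, Obp56g, Obp93a and Obp19c; the first 5 had their largest share of UMIs in the Ir25a cluster described below.

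**Figure D2:**
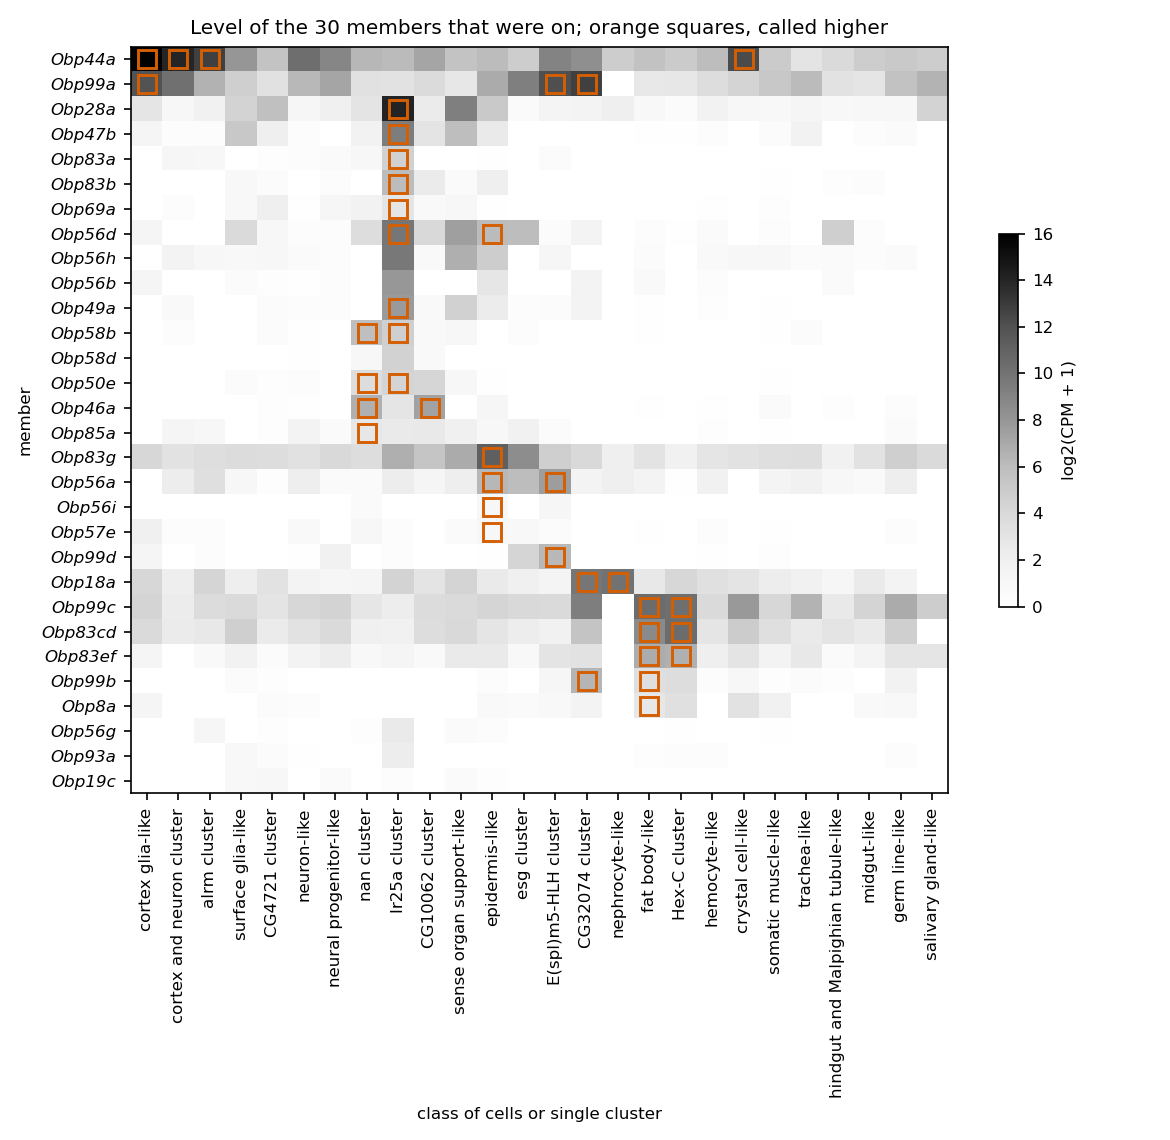
Level of the 30 members that were on in each of 26 classes or clusters, as log2(CPM + 1) in grey, with an orange square where the member was called higher. The squares of Obp44a lie on glia and crystal cell-like cells, those of Obp99c, Obp83cd and Obp83ef on fat body-like cells and the Hex-C cluster, and those of 9 members on the Ir25a cluster.

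Obp44a was highest in cortex glia-like cells, also higher in unnamed clusters that hold glial genes, and low in surface glia-like cells. The gene (2R, 8134170 to 8135315, minus strand; BDGP6) overlaps Pabp2, which lies on the opposite strand. In the 302 cortex glia-like cells, which wrap neuronal cell bodies, 6 of 6 cortex glia markers were raised (wrapper, zyd, CG9449, ana, Cyp4g15 and repo). Obp44a stood there at 58509 CPM (57950 to 59072). By library pair the values were 39069, 60312, 61205 and 58552 CPM. The ratio to all other cells was 6.67 on the log2 scale, and the gene was seen in 99.3% of these cells at full depth and in 97.8% after each cell was thinned to 500 UMIs. Obp44a and Obp99a were the members called higher in cortex glia-like cells, 2 of 30 or 6.67%, beside 2.85% of features. In the 1247 cells chosen by 2 or more wrapper UMIs in place of clusters, Obp44a stood at 5385 CPM and 8 members were called, of which Obp44a was the only one shared. The others were Obp28a, Obp47b, Obp46a, Obp58b, Obp83b, Obp85a and Obp50e. This set need not be cortex glia alone, since wrapper also stood at 411 CPM in the nan cluster and 248 CPM in the CG10062 cluster, both described below. Obp28a was in 3.53% of its cells. No share of all features was computed for this set.

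Obp44a was also higher in 2 unnamed clusters that hold glial genes. The cluster led by alrm, the marker of astrocyte-like glia, had 466 cells and 5 of 5 astrocyte markers raised, together with 7 of 8 neuronal markers. It also had 5 of 6 cortex glia markers raised (wrapper, zyd, ana, Cyp4g15 and repo) and 3 of 3 of ensheathing glia, so it is not a set of astrocytes alone. Obp44a stood there at 7130 CPM, with 1393, 7015, 7597 and 7940 CPM by pair, and 82.0% of the cells held it (64.3% thinned). In the 644 cells chosen by 2 or more alrm UMIs it stood at 3375 CPM. Pair 1 was far below the others, as it was over all cells. It was the only member higher in the alrm cluster (1 of 30; 3.69% of features). A cluster that mixes cortex glia genes such as CG9686 with 8 of 8 neuronal markers held 28.98% of all Obp44a UMIs, at 15875 CPM in 99.7% of its 362 cells, and again no other member was called there (6.13% of features). Pair 1 contributed 4 cells to it, and without pair 1 the members called were 2. Surface glia-like cells, which form the blood-brain barrier and had 10 of 10 markers raised including moody, held Obp44a at 248 CPM, a log2 ratio of -1.62 in the sum but of -0.04 in pair 1, and no member was higher in them (3.48% of features). The cluster led by CG4721, 551 cells with 7 of 10 surface glia and 4 of 5 peripheral glia markers raised, held 46.2 CPM of Obp44a (7.26, 53.4, 47.3 and 58.98 by pair) and was called lower for it. In the 2230 cells chosen by 2 or more moody UMIs, 6 members were called higher. They were Obp83cd, at 311 CPM against 75.0 CPM elsewhere, and the sparser Obp58b, Obp83b, Obp50e, Obp58d and Obp69a. This set need not be surface glia alone: moody was raised in the Ir25a cluster described below too. The set held 57531 of the 67632 Obp28a UMIs and 24963 UMIs of Obp99c. No share of all features was computed for it.

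Neuron-like cells held Obp44a at a lower level. The 4986 neuron-like cells held 1258 CPM (357, 1164, 1429 and 1385 by pair), a log2 ratio of 0.83 that did not reach 2-fold, in 45.3% of cells. For comparison, 16.6% of hemocyte-like cells held an Obp44a UMI at a greater median depth (4255 against 2451 UMIs per cell) and a level of 62.2 CPM. Thinned to 500 UMIs, the shares were 21.5% of neuron-like and 2.75% of hemocyte-like cells. Beside this, genes of cortex glia were also present in neuron-like cells. Obp44a had 10.9 UMIs there for each UMI of CG9686 (10.5 to 11.4) against 7.86 in cortex glia-like cells (7.64 to 8.09). It had 17.4 for each UMI of Obp99a against 15.1, 43.5 for each of Cyp4g15 against 45.5, and 37.2 for each of wrapper against 33.9. For CG43085 the ratio was 62.9 (56.9 to 69.6) against 44.8 (42.0 to 47.9). Intervals of the 2 classes overlapped for Cyp4g15 and wrapper but not for CG9686, Obp99a or CG43085. Over the 4 neuron-like clusters Obp44a ranged from 554 to 1898 CPM and its ratio to CG9686 from 10.4 to 12.7. An unnamed cluster led by cas, outside the 26 sets, had 8 neuronal and 4 neural progenitor markers raised. It held 10.2% of all Obp44a UMIs, at 1855 CPM in 78.5% of its 608 cells and a ratio to CG9686 of 9.73. Similar ratios to CG9686 were found at low Obp44a levels elsewhere, 13.6 in hemocyte-like, 13.6 in fat body-like, 12.2 in surface glia-like and 10.4 in somatic muscle-like cells. In the alrm cluster Obp44a was higher than in cortex glia-like cells relative to CG9686 (31.7) and Obp99a (76.8) and lower relative to Cyp4g15 (15.2) and wrapper (19.7, against 33.9). How much of the neuronal Obp44a was RNA of cortex glia was not tested. No member was higher in neuron-like cells (15.8% of features), and 13 of 30 were lower, at no more than 0.5-fold in the sum and in each pair (24.9% of features).

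Crystal cells, the blood cells that make prophenoloxidase, were another place of Obp44a. The 159 crystal cell-like cells had lz, PPO1 and PPO2 raised and held 4994 CPM of Obp44a (5796, 4062, 5139 and 2850 by pair), in 57.2% of cells. All 4 pairs lay above the 737 CPM of the remaining cells. Most cortex glia genes were near 0 in them: 4904 Obp44a UMIs stood beside 2 of CG9686, 3 of Cyp4g15, 19 of Obp99a and 17 of wrapper. Obp44a thus had 2452 UMIs for each of CG9686, a ratio that rests on 2 UMIs (678 to 20253), and 288 for each of wrapper (180 to 496). The level was uneven, since 26 of the cells had 20 or more Obp44a UMIs and held 4670 of the 4904. Those 26 cells came from all 4 pairs (15, 3, 6 and 2) and had a median of 10176 UMIs, against 2224 in the other 133, and PPO1 at 40663 CPM against 32094. With each cell weighted equally the log2 ratio was 1.33 in place of 2.76 and Obp44a was no longer called. It was the only member higher in this class (0.904% of features).

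**Figure D3:**
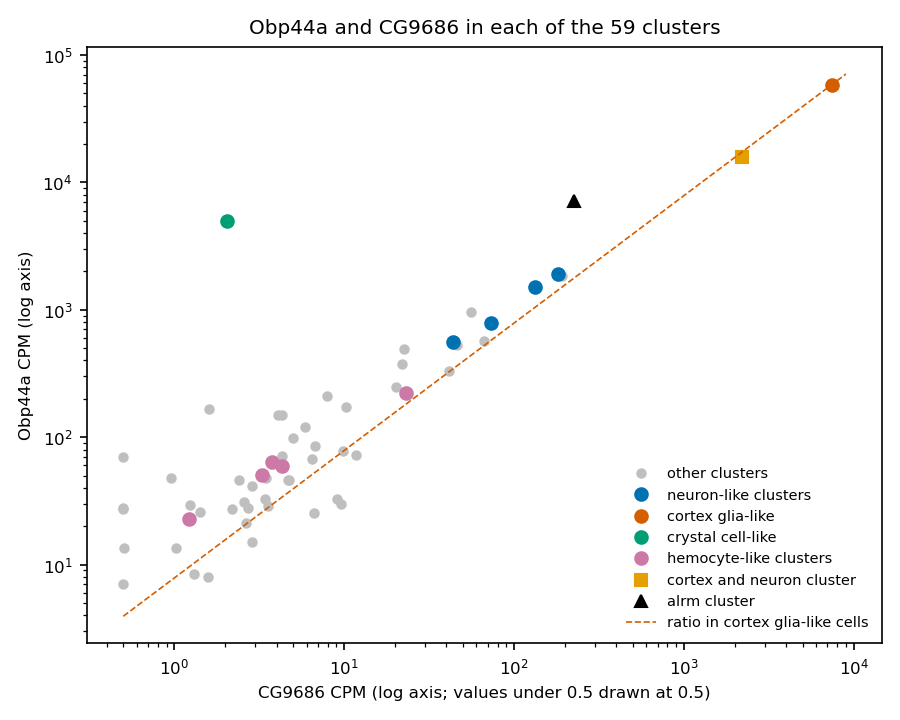
CPM of Obp44a against CPM of the cortex glia gene CG9686 in each of the 59 clusters, both on log axes, with values under 0.5 drawn at 0.5; the broken line is the ratio of 7.86 found in cortex glia-like cells. The 4 neuron-like clusters lie somewhat above the line at ratios of 10.4 to 12.7, the alrm cluster lies further above it at 31.7, and crystal cell-like cells stand apart at 4994 CPM of Obp44a.

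Obp99a (3R, 29671657 to 29672334, plus strand) shared cortex glia with Obp44a but was found in several unrelated places. Cortex glia-like cells held it at 3882 CPM (2487, 2514, 5133 and 4450 by pair) in 67.2% of cells, a log2 ratio of 4.96. In the cells chosen by wrapper UMIs it stood at 473 CPM, the ratio was 2.20 and the call was lost. The gene was most concentrated in a cluster of 182 cells led by CG32074 that took no name from the marker lists, at 6899 CPM (9596, 6666, 5043 and 4830). Its largest share of UMIs, 35.0%, lay in a cluster led by E(spl)m5-HLH, a target of Notch signalling, in which 5 of 6 neural progenitor markers were raised. There it stood at 4433 CPM (4694, 4862, 3682 and 4481) in 62.1% of 372 cells, and Obp44a, at 528 CPM, was the lower of the pair. In the alrm cluster Obp99a was at 92.8 CPM, below the mean of the remaining cells, and in hemocyte-like cells at 11.9 CPM. Its pattern over clusters was the least matched of the 5 most abundant members, with the most similar gene, toy, at a Pearson correlation of 0.64 over 59 clusters that share libraries.

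The E(spl)m5-HLH cluster held 3 members, 10.0% of those on, beside 2.99% of features. Obp56a stood at 189 CPM (444, 21.0, 203 and 104 by pair) and Obp99d at 75.0 CPM (36.7, 95.9, 76.8 and 88.3), in 9.95% and 9.41% of cells. The call of Obp56a was lost under the study's limits on cells and at a coarser clustering, which left 2 members. Obp99d was narrow: 65.7% of its 283 UMIs came from this cluster and 24.4% from the cluster led by esg. In that cluster 3 of 5 tracheal markers were raised, Gasp, verm and serp, which were raised in epidermis-like cells too, while trh and btl were not, and it was left unnamed. There Obp99a was at 621 CPM and Obp83g at 352 CPM, both short of 2-fold in at least 1 pair, and pair 1 held no Obp99d. No member was called higher in it (3.1% of features were).

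**Figure D4:**
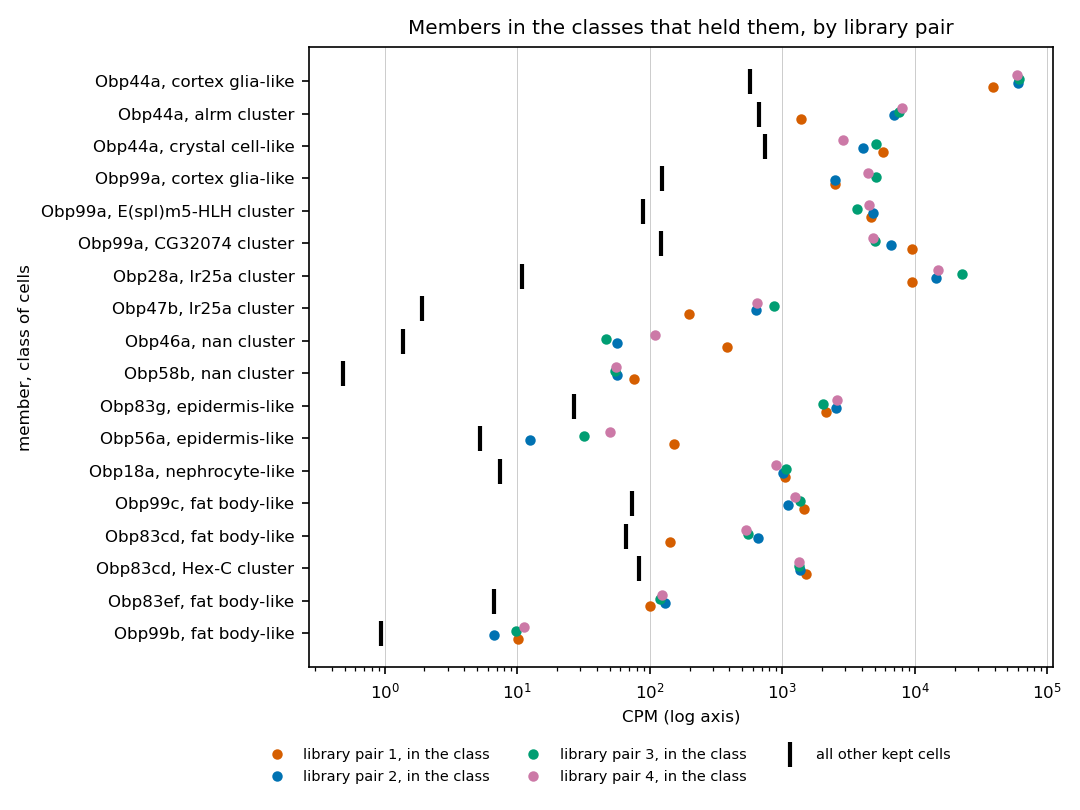
CPM (log axis) of members in the class or cluster named beside them, with a coloured point for each library pair and a black bar for all other kept cells in the sum of the pairs. For each of the 18 combinations all 4 points lie to the right of the bar; pair 1 is lowest for Obp44a in the alrm cluster, at 1393 CPM, and for Obp83cd in fat body-like cells, at 143 CPM.

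The Ir25a cluster, of sense organ cells, held the largest number of members called in any set when all kept cells were used. The cluster, 264 cells of which 14 came from pair 1, had 9 of 12 sensory neuron markers raised, among them the co-receptor genes Orco, Ir25a and Ir76b. It also had 6 of 7 markers of sense organ support cells and 7 of 10 of surface glia raised, so that it is not a set of neurons alone. There 9 of 30 members were higher, 30% beside 6.83% of features: Obp28a, Obp56d, Obp47b, Obp49a, Obp58b, Obp83b, Obp50e, Obp83a and Obp69a. Obp56h (79.7% of its UMIs), Obp56b (85.0%), Obp58c (98.7%), Obp58d (92.0%) and Obp50d (all 35) had most of their UMIs in the same cluster without being called. Of the UMIs of these 5 in the cluster, pair 1 held none of Obp56h, Obp58c, Obp58d or Obp50d, and pair 3 held 1 of Obp56b. The call of Obp69a, with 26 UMIs in the cluster, was lost without pair 2 or pair 4, which left 19 and 13 UMIs. The count depended on the deepest cells. Without the 8% deepest cells, and likewise under the study's limits on cells, 3 members were called, Obp47b, Obp49a and Obp56d. Under those limits the nan cluster also had 3 and fat body-like cells had 5. The calls of Obp28a, Obp58b, Obp83b, Obp50e, Obp83a and Obp69a were lost or had no value under both settings, and Obp58b kept 1 UMI in the cluster under the study's limits.

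Droplets rich in Obp28a held neither Obp58c nor more than 1 UMI of Obp56h, while Obp47b and Obp56d ran through nearly all droplets rich in any of the 3. The richest droplets were those of Obp28a (2L, 7496791 to 7497365, minus strand), a major protein of adult antennal lymph. It stood at 16804 CPM in the cluster but in only 17.8% of its cells (13.4 to 23.0). In all, 17 droplets of the 27932 held 2096 to 6941 Obp28a UMIs, while the next held 687. They came from all 4 pairs (1, 4, 7 and 5), carried 95.5% of the gene's UMIs, and Obp28a made up 3.11% to 11.2% of everything counted in each. All 17 held Obp47b as well, at 34 to 215 UMIs, and they carried 64.8% of that gene's UMIs. Obp83a and Obp83b, the genes of the antennal proteins OS-F and OS-E, were found in 13 and 15 of them, at up to 16 and 23 UMIs. Obp83a was otherwise almost unseen, with 70.7% of its 116 UMIs in these 17 droplets.

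The same 17 droplets were marked by receptor genes of smell and by genes of support cells at once. Orco, the co-receptor of odorant receptors, was present in all 17 (16 to 94 UMIs), and they held 84.9% of all 1222 Orco UMIs. Ir25a was in 17, Ir21a in 17 and Ir93a in 16, the last 2 being genes of temperature sensing. The neuronal genes elav and nSyb were in all 17, and so were nompA, which encodes a protein of the dendritic cap, and Su(H), the socket cell gene. The glial gene repo was in 16. These droplets were among the deepest, with a median of 87318 UMIs (18769 to 115444) and a median depth percentile of 99.1 among kept cells, against a median of 4402 UMIs in the rest of the cluster. Whether each held several attached cells was not tested. Without the 8% of cells with the most UMIs in each pair, 1 of the 17 remained and the log2 ratio of Obp28a, 10.59 in all cells, was 7.99 and the call was lost. The study's own limits on cells (50 to 3000 genes, under 10% mitochondrial UMIs) removed all 17, and the ratio was then 6.59 from 213 UMIs, again with no call.

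A second group was led by Obp56h (2R, 19815554 to 19816204, plus strand). Of the droplets, 33 held 20 or more of its UMIs, up to 303, and these carried 92.6% of the gene's UMIs. Of the 33, 29 lay in the Ir25a cluster, 3 in epidermis-like cells and 1 in sense organ support-like cells. Obp56d was in all 33 (median 79 UMIs), Obp47b in 32 (median 18), Obp49a in 32 (median 23) and Obp56b in 16 (up to 296). Obp49a is known from adult taste sensilla, where it is needed for bitter compounds to suppress the response to sugar. Orco was in 5 of these droplets, with 7 UMIs in all, whereas Ir25a and Ir76b were each in 31 of 33 with a median of 8 UMIs. None of them held Obp83a, and Obp28a was in 13, at up to 16 UMIs. No droplet had both 1000 Obp28a UMIs and 20 of Obp56h. Support and neuronal genes again occurred together, with nompA in 33 and elav in 31, at a median of 24221 UMIs per droplet. By pair they numbered 0, 20, 5 and 8, so pair 2 held most of them, and Obp56h, Obp56b and Obp49a were highest there over all cells (48.5 CPM for Obp56h and 9.65 CPM for Obp49a).

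Another combination was that of Obp58c, Obp58d, Obp50d and Obp58b. Obp58c had 20 or more UMIs in 4 droplets (20 to 189), which held 81.5% of its UMIs. Obp58d, Obp50d and Obp58b were present in all 4, at up to 64, 22 and 71 UMIs, and Orco was absent. Obp28a was present in all 4 droplets too, at 3 to 29 UMIs. Of the 4, 2 came from pair 2 and 1 each from pairs 3 and 4, and 1 of those from pair 2 also belonged to the Obp56h group, with 47 Obp56h UMIs. Obp58c and Obp56h were not separate: of the 8 droplets with Obp58c among those with 20 or more UMIs of any sense organ member, 6 held Obp56h. The single droplet of pair 3 held the highest values of all 4 genes. Obp58c lies 232 bp from Obp58b on one side and 255 bp from Obp58d on the other.

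**Figure D5:**
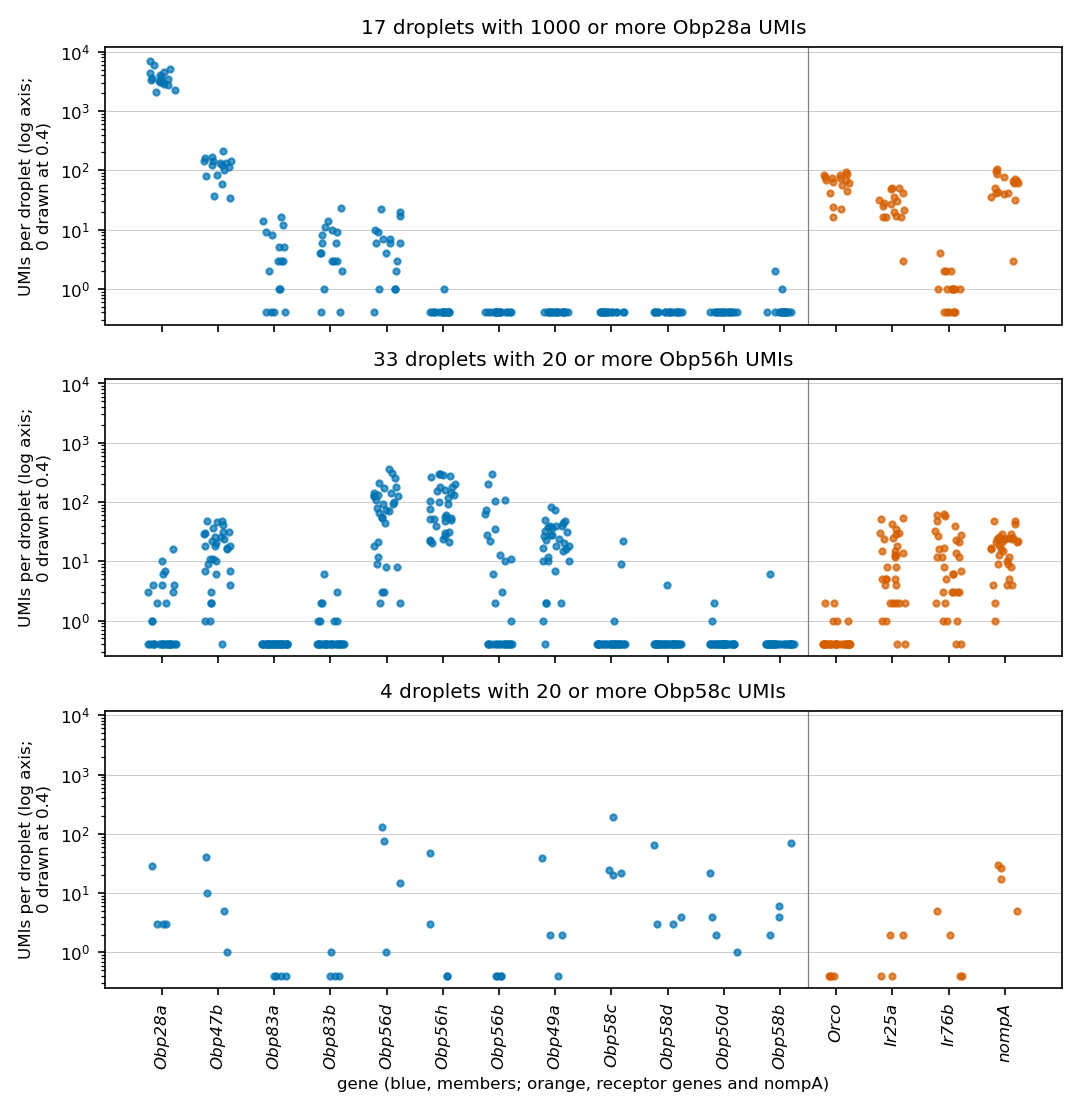
UMIs per droplet (log axis, 0 drawn at 0.4) of 12 members in blue and of Orco, Ir25a, Ir76b and nompA in orange, in the 17, 33 and 4 droplets chosen by Obp28a, Obp56h and Obp58c. The droplets were chosen by these 3 genes, the last 2 groups share 1 droplet, Orco reached 16 to 94 UMIs in the first, at most 2 in the second and 0 in the last, and nompA was present in every droplet.

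Obp56d (2R, 19702924 to 19703915, minus strand) also occurred apart from these combinations. A further 22 droplets held 21 to 226 of its UMIs with no UMI of Obp28a, Obp56h, Obp49a or Obp58c, and of these 14 lay in epidermis-like clusters. Only 3 of the 22 held nompA, and 4 held nSyb. In the epidermis-like class as a whole Obp56d stood at 67.3 CPM, with 6.43 CPM in pair 1 and 51.3 to 139 CPM in the others, and the call was lost without the 8% deepest cells and at a finer clustering.

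The nan cluster, 319 cells with markers of stretch-sensing chordotonal neurons such as nan, iav and nompC, held a different set. Here 7 of 12 sensory neuron markers and 4 of 7 support cell markers were raised. Obp46a, Obp58b, Obp85a and Obp50e were higher, 4 of 30 or 13.3% beside 7.86% of features. Obp58b was the most widespread, in 48.9% of cells at 57.6 CPM (76.5, 56.5, 54.9 and 56.0 by pair), and 73.0% of its UMIs lay here. Obp46a (2R, 10311172 to 10312023, minus strand) stood at 98.0 CPM but was uneven between pairs (385, 56.5, 46.6 and 109). It was also the only member higher in the cluster led by CG10062 (1 of 30; 4.45% of features), at 164 CPM (407, 125, 100 and 183), in which nompA and 3 other support cell markers were raised and none of 8 neuronal markers was. It also had 6 of 10 surface glia markers raised, 3 of 6 of cortex glia and the sensory neuron genes nompC and btv, and it was left unnamed. Of the 8 droplets with 20 or more Obp46a UMIs all held nompA, 6 held elav and 1 held Ir25a. Obp85a overlaps CG45263 on the same strand, so its 28 UMIs in the nan cluster cannot be assigned with certainty. Its call was lost without pair 3 or pair 4, which left 19 UMIs each. Sense organ support-like cells, by contrast, had no member called (4.36% of features), although 11 of 347 cells there held 1066 UMIs of Obp28a, at 3094, 440, 2.67 and 59.3 CPM by pair.

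The receptor and carrier genes listed beside the family were found in the same places in part. Of 32 other chemosensory genes on the list, 30 matched a feature and 19 were on. The Ir25a cluster was higher for 10 of them: Orco, Ir25a, Ir76b, Ir93a, Ir21a, Gr21a, Gr66a, Gr33a, Or42a and nompA. The listed genes lush, Os-C and a5 were not higher in that cluster. The gene lush, left out of the members by its symbol, encodes the carrier needed for the pheromone response of the adult. It had 172 UMIs and was higher in hemocyte-like cells, where no gene named Obp was. Os-C had 174 and was higher in epidermis-like cells, and a5 had none. Snmp1, a partner of pheromone receptors, had 14 UMIs. Phk-3, a gene of the unrelated chemosensory protein family, exceeded every member with 282085 UMIs and was higher in the esg cluster and in epidermis-like cells.

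Epidermis was the place of Obp83g (3R, 6111671 to 6112302, minus strand). The 1587 epidermis-like cells, with 12 of 16 markers raised, held it at 2303 CPM (2281 to 2325), with 2125, 2534, 2029 and 2603 CPM by pair. Against 26.6 CPM elsewhere the log2 ratio was 6.43, between 6.15 and 6.69 in each pair, and 88.0% of the gene's UMIs lay in this class. It was seen in 71.7% of cells (39.5% thinned). Among the epidermis-like clusters the level ran from 792 CPM in the cluster led by CG7203 to 2912 CPM in that led by TwdlF and 4737 CPM in that led by the cuticle gene Cpr47Eg. The genes most like Obp83g over clusters were CG2962, frm and CG14515, at Pearson correlations of 0.93, 0.91 and 0.90.

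In all, 5 members were higher in epidermis-like cells (16.7%, beside 6.8% of features), and the others were sparse. Under the study's limits on cells 2 were called, and 1, Obp83g, without the 8% deepest cells or in cells chosen by marker genes. Obp56a (2R, 19697723 to 19698508, plus strand) stood at 75.4 CPM but in 5.04% of cells, and its level moved with the library, at 154 CPM in pair 1 against 12.4, 32.2 and 50.1 CPM. A single cell held 691 of its 2465 UMIs, and the call was lost under the study's limits on cells. Obp56i and Obp57e had 21 UMIs each in the class, the latter a gene known for its part in host plant choice in Drosophila sechellia. Neither was called once any 1 library pair was left out.

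Fat body, the fly's organ of storage and secretion, held 5 members that were higher, 16.7% of those on beside 9.81% of features. Obp99c (3R, 29685736 to 29689311, minus strand) was foremost. It stood at 1344 CPM in the 2748 fat body-like cells (1333 to 1355), with 1470, 1106, 1351 and 1246 CPM by pair and a log2 ratio of 4.19. Obp99c was seen in 97.4% of fat body-like cells (46.1% thinned) and in 4.66% of hemocyte-like cells, and 80.5% of its UMIs came from fat body-like cells. Its level ranged from 1184 to 1771 CPM over the 3 largest of the 4 clusters. The most similar genes over clusters were CG6415, CG8160 and CG2233, at Pearson correlations of 0.94, 0.94 and 0.93.

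Obp83cd (3R, 6108134 to 6109733, plus strand) and Obp83ef (6109642 to 6111034, minus strand), whose ends overlap by 92 bp on opposite strands, went with Obp99c but in different proportions. In fat body-like cells Obp83ef was even, at 114 CPM (101, 131, 120 and 123 by pair), and Obp83cd was not, at 399 CPM (143, 654, 555 and 529). Obp83cd split the fat body clusters. It reached 691 CPM in the cluster led by AkhR, the receptor of adipokinetic hormone, against 148 CPM in that led by Lip2 and 60.9 CPM in that led by hll, whereas Obp83ef stood at 128, 112 and 72.5 CPM in the same clusters. Obp99b and Obp8a were low but higher in the class, at 9.85 CPM (10.2, 6.73, 9.74 and 11.3) and 5.51 CPM (6.01, 7.43, 4.74 and 4.30). By the reverse rule 15 of 30 members were lower in fat body-like cells, among them Obp44a at 47.1 CPM and Obp83g at 7.39 CPM (38.3% of features).

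The Hex-C cluster, 177 deep cells, had Hex-C, Spn43Ab and IM33 raised, at 7333 CPM in sum. All 3 were raised in fat body-like cells too, at 1578 CPM in sum. The Hex-C cluster had 3 of 7 fat body markers raised as well and was left unnamed. Its members were the leading 3 of fat body, 10.0% of those on beside 2.56% of features, but in another order. Obp83cd was first at 1343 CPM (1523, 1355, 1330 and 1347 by pair), then Obp99c at 1203 CPM and Obp83ef at 98.4 CPM. Pair 1 gave only 2 of the cells. Obp83cd was 2.07-fold, 2.40-fold and 2.55-fold as high as in fat body-like cells of the same pair in pairs 2, 3 and 4. Obp99c was 1.03-fold, 0.905-fold and 0.983-fold as high there, and Obp83ef 0.692-fold, 0.807-fold and 0.859-fold. Those fat body-like cells pool several clusters. In the AkhR cluster alone, which also had the 3 markers raised, the levels were 691 CPM for Obp83cd, 1184 CPM for Obp99c and 128 CPM for Obp83ef. In the 837 cells with at least 1 UMI of both Hex-C and Spn43Ab, a set chosen without clusters, the levels were 819 CPM for Obp83cd, 1112 CPM for Obp99c and 109 CPM for Obp83ef. Obp99b and Obp8a, at 11.2 and 9.47 CPM, were more than 2-fold higher in pairs 2, 3 and 4, but the 2 cells of pair 1 held none of either and they were not called. Without pair 1, 5 members were called in the cluster, with no share of all features computed.

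Hemocyte-like cells, 5431 in number with 8 of 8 markers raised, held no member that was higher (5.15% of features), and 18 of 30 were lower (40.2% of features). This was the largest number of members lower in any of the 26 sets. Obp44a was at 62.2 CPM, Obp99c at 13.2 CPM, Obp99a at 11.9 CPM, Obp83g at 6.89 CPM and Obp28a at 2.23 CPM. In the 5456 cells chosen by a UMI of both Sr-CI and Pxn, the levels were higher, 161 CPM for Obp44a, 52.6 CPM for Obp99c, 30.3 CPM for Obp99a and 129 CPM for Obp83g, which was no longer called lower. There 12 members were lower, and no share of all features was computed for this set.

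Obp18a (X, 19135081 to 19135868, minus strand) had 2 small places. Nephrocyte-like cells, the filtering cells of the hemolymph, numbered 48 and had 4 of 4 markers raised. They held Obp18a at 1031 CPM (1050, 1012, 1063 and 892 by pair) in 93.8% of cells (39.1% thinned), with no UMI of Obp99c, Obp99a or Obp83cd, and it was the only member higher there (4.12% of features). The call was lost under the study's limits on cells, where 186 UMIs were left and the log2 ratio was 6.83. The CG32074 cluster held it at 897 CPM (1026, 882, 878 and 690) in 58.2% of cells, beside Obp99a and Obp99b, the 3 members higher in that cluster (10.0%, beside 2.15% of features). The call of Obp99b there was lost without pair 1, which left 16 UMIs. Outside both, Obp18a was spread thinly, for example at 9.75 CPM in hemocyte-like and 5.32 CPM in fat body-like cells, and 1124 cells held at least 1 UMI.

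Genes of the family lie in clusters on the chromosomes, and neighbours often differed. Of 23 pairs of members less than 20000 bp apart, 6 had both members on. Obp83a and Obp83b, 931 bp apart, were both higher in the Ir25a cluster, with a Pearson correlation over the 59 clusters of 0.67, and Obp83cd and Obp83ef shared fat body-like cells with one of 0.72. Obp83ef and Obp83g, 636 bp apart on the same strand, did not share a place (-0.04), nor did Obp99a and Obp99c (0.07), Obp99d and Obp99b (-0.08), or Obp56a and Obp56b (0.19). These correlations describe the clusters and carry no test, since all clusters share the same libraries. In the group at 56 on 2R, Obp56a was higher in epidermis-like cells and the E(spl)m5-HLH cluster, and Obp56d in the Ir25a cluster and epidermis-like cells. Obp56b and Obp56h had most of their UMIs in the Ir25a cluster without being called. Obp56i was higher in epidermis-like cells, and Obp56g, with 38 UMIs, nowhere. Obp56c, Obp56e and Obp56f had 5, 1 and 2 UMIs in all.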

How the data were processed

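The authors dissociated pools of embryos, made libraries with 10x Genomics 3' chemistry and, per the labels, processed the reads with Cell Ranger 3.1.0 against BDGP6. The deposited matrix holds the authors' UMI counts as whole numbers, merged over all libraries with no filter of the study applied (73765 barcodes, 252748748 UMIs). Whether merging equalised depth was not given in the sources used here. Feature positions were taken from Ensembl release 115 (BDGP6.54, the same assembly).

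Barcodes under numbers n and n + 4 were summed (other numbers shared at most 0.422%). A molecule read under both numbers would count under each in the sum, and how often this occurred was not tested. Cells were kept at 200 or more genes and under 20% mt: UMIs, and the study's limits (50 to 3000 genes, under 10%) were an alternative, which kept 18605. In Python 3.11.15 with numpy 2.4.6, scipy 1.17.1, scanpy 1.11.5 and leidenalg 0.10.2, 3000 variable genes without Obp and mt: genes, 50 components and 20 neighbours gave 59 Leiden clusters at resolution 2.0. A cluster was named from 3 or more markers raised 2-fold with a UMI in 10% of cells, and more than for any other class. No name was given where its leading genes held more markers of another class. Clusters of low depth whose leading genes held no marker of the class also stayed unnamed. Beyond these rules, names of 4 more clusters were withheld after their leading genes were seen. No doublet caller was run.

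Levels are CPM of summed counts, so differences rest on counts alone, and intervals (Poisson, Clopper-Pearson) cover counting error only. A member was lower at 0.5-fold or less in the sum and every pair, with 20 UMIs elsewhere and 20 expected in the set. For thinned shares each cell was drawn down to 500 UMIs and shallower cells were left out. Every member was accounted for, those with 100 or more UMIs one by one, and for the 5 most abundant the 3 genes most alike in log2(CPM + 1) over clusters were sought. Members, marker lists and rules were chosen with earlier results of these data known. The droplet groups and their minimums of 20 and 1000 UMIs were set after values were seen. The scripts were tested on simulated data. Alternatives were other cell filters, 1 number per barcode, each pair left out, removal of the 8% deepest cells, other clusterings, cells chosen by marker UMIs, equal weight per cell, other UMI minimums and thinning.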

Additional observations from a re-analysis of the deposited data

Results flagged for a closer look

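For the 25 members with 100 or more UMIs, the CPM over all kept cells was compared across the 4 pairs. In 2 of the 25, 1 pair stood far from the others relative to the whole range, and chance alone flags about 1 in 20 groups. Obp56b was at 15.04 CPM in pair 2, against 1.09, 0.514 and 2.53 CPM in pairs 1, 3 and 4. Its 20 richest cells held 97.2% of its UMIs. Obp8a was at 2.32 CPM in pair 1, against 1.63, 1.69 and 1.68 CPM in pairs 2, 3 and 4. Pair 1 also held the largest share of fat body-like cells, the class in which Obp8a was higher. The part of that share in the difference was not tested.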

How the results depend on the processing

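Members on numbered 30 and lay between 23 and 32 over the alternatives, members called higher 24 (17 to 26) and members lower 24 (16 to 27), all within 1.5 times of the main count. Among the calls that gave a ratio, none changed direction. A set that kept no UMI of a member gave no ratio, so such a fall could not be counted as a change of direction. Obp50e, Obp69a, Obp83a and Obp83b had no value in the Ir25a cluster under the study's limits on cells. Of 39 calls of a member in a set, 23 were kept under each of the 14 settings that gave them a value, 15 of them with a value under every setting of their set, and 16 were lost under at least 1. In single sets the counts moved more: the 9 members of the Ir25a cluster became 3 under the study's limits on cells and 3 without the 8% deepest cells, and 13 without pair 1. No share of all features was computed under the alternatives, so these counts have no background beside them. Leiden resolution 1.0 gave no match for the Ir25a, Hex-C, CG10062 and cortex and neuron clusters, and resolution 3.0 none for the Hex-C cluster.

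Shares of cells with a UMI moved with depth. Thinned to 500 UMIs per cell they were 46.1% for Obp99c in fat body-like cells, 7.98% for Obp28a in the Ir25a cluster, 39.5% for Obp83g in epidermis-like cells and 66.0% for Obp99a in the CG32074 cluster. Under the study's limits on cells the share of Obp28a was 1.37% of 73 cells. With each library pair left out in turn, the share of Obp83g ranged from 69.4% to 73.7%. There were no treatment groups to pair, and each set was compared with the other cells within every library pair without a p-value. The 2 numbers of a barcode are 2 readings of the same cells: for 25 members their squared differences were a median of 1.05 times what independent counts give, 6.56 times for Obp44a and 72.4 times for Obp28a, so counting intervals understate the spread of these.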
